A study of Mus musculus with 9 samples.

Results

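Matrix metalloproteinases are zinc-dependent enzymes that cut collagens, other matrix proteins and many cytokines and receptors. TIMP1 is a secreted inhibitor that binds the active site of many of them. The set described here holds 10 genes, 9 metalloproteinases (Mmp2, Mmp3, Mmp8, Mmp9, Mmp10, Mmp12, Mmp13, Mmp14 and Mmp27) and Timp1, out of 30142 genes measured. A gene was represented by the transcript cluster that the platform annotation gave to that symbol alone, and by the cluster with the highest mean over 9 arrays where it had several. All 10 genes were found, each with 1 such cluster, and no filter on low values was applied.

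Total RNA of whole neck skin from male C57BL/6 mice aged 6 to 8 weeks was hybridised to 9 Affymetrix arrays. The 3 control arrays held skin described as healthy. The 3 oxazolone and 3 urushiol arrays held skin with allergic contact dermatitis, raised with a synthetic hapten (oxazolone) or with the allergenic oil of poison ivy (urushiol). Both allergens were put on the shaved abdomen at 2.0% for sensitisation and, from 5 days later, on the shaved nape at 0.5% in 40 µl acetone as 5 challenges that ended on day 8, and RNA came from skin collected 4 hours later. With shaving and acetone treatment of control mice not given in the sources used here, allergen, shaving and vehicle cannot be told apart in comparisons with control. The replicates are called biological by the labels, with nothing on litter, cage or pooling.

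In resting skin most metalloproteinases are made at low levels, as inactive proenzymes. In wounded or inflamed skin, keratinocytes at the wound edge are known for MMP9, MMP10 and MMP13, dermal fibroblasts for MMP2, MMP3 and MMP14, neutrophils for stored MMP8 and MMP9, and macrophages for MMP12. Cytokines such as interleukin 1 and tumour necrosis factor induce several of these genes through the transcription factor AP-1, a dimer of Fos and Jun proteins. In mice MMP13 is the main secreted collagenase of connective tissue cells.

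Of the 10 genes, 6 are neighbours. In the mouse RefSeq gene table of assembly GRCm38, used here for names and order alone, 10 metalloproteinase genes follow each other on chromosome 9 with no other protein-coding gene between them: Mmp13, Mmp12, Mmp1b, Mmp3, Mmp1a, Mmp10, Mmp8, Mmp27, Mmp20 and Mmp7. Timp1 overlaps the gene Syn1 on chromosome X, and Mmp8 and Mmp27 both overlap the long noncoding RNA gene Gm31751.

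RefSeq promoter windows (GRCm38.p6), cut here to the 250 bases before the start of a gene, were at hand for 8 of the 10 genes, all except Mmp2 and Mmp9. Among the neighbours on chromosome 9, Mmp13, Mmp12, Mmp1b, Mmp3, Mmp1a, Mmp10 and Mmp8 had higher group means in challenged skin and Mmp27 lower ones. Windows of Mmp12, Mmp1a and Mmp8 are left out here, and that of Mmp8 holds neither kind of letters marked below. The 5 windows below are those of Mmp13, Mmp10, Mmp3, Mmp1b and Mmp27. They run 5′ to 3′ along the gene, and capitals mark the AP-1 site letters TGANTCA and the TATA box letters TATAAA.
Mmp13, chr9:7272264-7272513, plus strand: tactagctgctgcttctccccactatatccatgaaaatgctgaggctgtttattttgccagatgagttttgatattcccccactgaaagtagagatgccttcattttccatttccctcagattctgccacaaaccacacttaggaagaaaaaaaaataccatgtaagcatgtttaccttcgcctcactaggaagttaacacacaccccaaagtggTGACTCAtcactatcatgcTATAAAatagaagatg
Mmp10, chr9:7502092-7502341, plus strand: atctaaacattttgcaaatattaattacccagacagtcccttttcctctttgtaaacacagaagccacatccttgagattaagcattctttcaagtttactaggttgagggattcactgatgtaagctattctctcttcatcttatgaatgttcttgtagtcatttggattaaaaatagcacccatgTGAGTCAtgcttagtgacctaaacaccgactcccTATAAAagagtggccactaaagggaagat
Mmp3, chr9:7445572-7445821, plus strand: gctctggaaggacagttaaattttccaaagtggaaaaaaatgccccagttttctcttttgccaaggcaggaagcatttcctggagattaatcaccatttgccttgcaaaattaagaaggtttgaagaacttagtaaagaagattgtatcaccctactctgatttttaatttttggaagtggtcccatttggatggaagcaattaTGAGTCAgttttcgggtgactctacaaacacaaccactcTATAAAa
Mmp1b, chr9:7388027-7388276, minus strand: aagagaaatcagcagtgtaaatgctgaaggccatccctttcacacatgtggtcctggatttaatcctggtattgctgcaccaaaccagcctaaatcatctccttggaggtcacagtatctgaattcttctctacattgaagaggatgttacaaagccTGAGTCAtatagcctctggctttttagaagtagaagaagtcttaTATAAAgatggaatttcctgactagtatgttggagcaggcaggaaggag
Mmp27, chr9:7571146-7571395, plus strand: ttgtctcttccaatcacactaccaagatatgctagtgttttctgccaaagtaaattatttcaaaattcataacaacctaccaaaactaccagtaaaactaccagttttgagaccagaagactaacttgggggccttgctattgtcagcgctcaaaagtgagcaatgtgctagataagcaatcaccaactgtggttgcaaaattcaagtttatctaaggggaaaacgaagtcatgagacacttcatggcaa

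The letters TGANTCA, which read the same on both strands, were present in 6.75% of 32851 promoter windows of all genes. Among the 8 windowed genes they were present in 4, namely Mmp13 (35 to 29 bases before the start), Mmp10 (63 to 57), Mmp3 (46 to 40) and the second of 2 windows of Mmp12 (44 to 38). The TATA box letters TATAAA, searched on both strands and not overlapping the AP-1 matches, were present in 3 of the 8 (Mmp13, Mmp10 and Mmp3) and in 12.4% of all windows. No AP-1 match was in the windows of Mmp8, Mmp14, Mmp27 and Timp1. The letters AGGAAG, a core of ETS factor sites, were in the windows of 6 of the 8 genes and in 29.5% of all windows, while TTCNNNGAA (STAT) and the NF-kB motif were in none of the 8, against 7.02% and 4.65% of all windows; both strands were searched. These are matches of letters only and say nothing of binding.

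Each cluster has 1 deposited log2 expression value per array. These values run up to 19.93, past the log2 limit of 16 of a 16-bit scanner, by a step not given in the sources used here. A log2 difference therefore may not equal a log2 ratio of RNA amounts. All values of the 10 genes lay below 16. Groups were compared with limma over all genes, and a gene is called where its Benjamini-Hochberg adjusted p is under 0.05. In what follows, a log2 difference between 2 groups of 3 arrays is given ± its standard error. In bulk skin, fewer cells of a type and less RNA per cell cannot be told apart.

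Some arrays stood apart, which touches the comparisons with control. Control array 3 correlated at 0.978 and 0.979 across genes with the other controls, which correlated at 0.995. Its mean over 15 hair follicle markers was 3.72 log2 units above the control mean, against -1.98 and -1.74 for control arrays 1 and 2, and its mean over 14 skeletal muscle markers was -1.64, against 0.85 and 0.79. Challenged arrays lay 2.44 to 5.75 above the control mean for hair follicle and between -9.85 and -5.04 relative to it for muscle. The part of these differences in the results was not tested. Without control array 3, limma called 6 of the 10 genes in oxazolone and 3 in urushiol skin. Of all 30142 genes it then called 8019 and 7655, against 4989 and 4942 with every array kept. The mean of 11 keratinocyte markers lay between 14.18 and 15.93 on every array. None of the 11 lay below the array median on all arrays. That median ran from 5.53 to 5.64 over all clusters.

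Relative to control skin, Mmp13, Timp1, Mmp10, Mmp9 and Mmp8 rose and Mmp27 fell in oxazolone skin. Over all genes, limma called 16.6% of 30142 genes in this comparison, 9.63% higher and 6.92% lower, against 6 of the 10 genes here, 5 higher and 1 lower. In urushiol skin the same 5 genes rose, against 16.4% of all genes called and 9.96% called higher, and none of the 10 was called lower, against 6.43% of all genes. At limma's unadjusted p under 0.05, 8 and 7 of the 10 genes passed, against 34.1% and 32.2% of all genes. The median difference of the 10 genes was 1.71 in oxazolone and 1.63 in urushiol skin, beside 0.06 and 0.04 over all genes. Both comparisons use the same 3 control arrays.

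**Figure D1:**
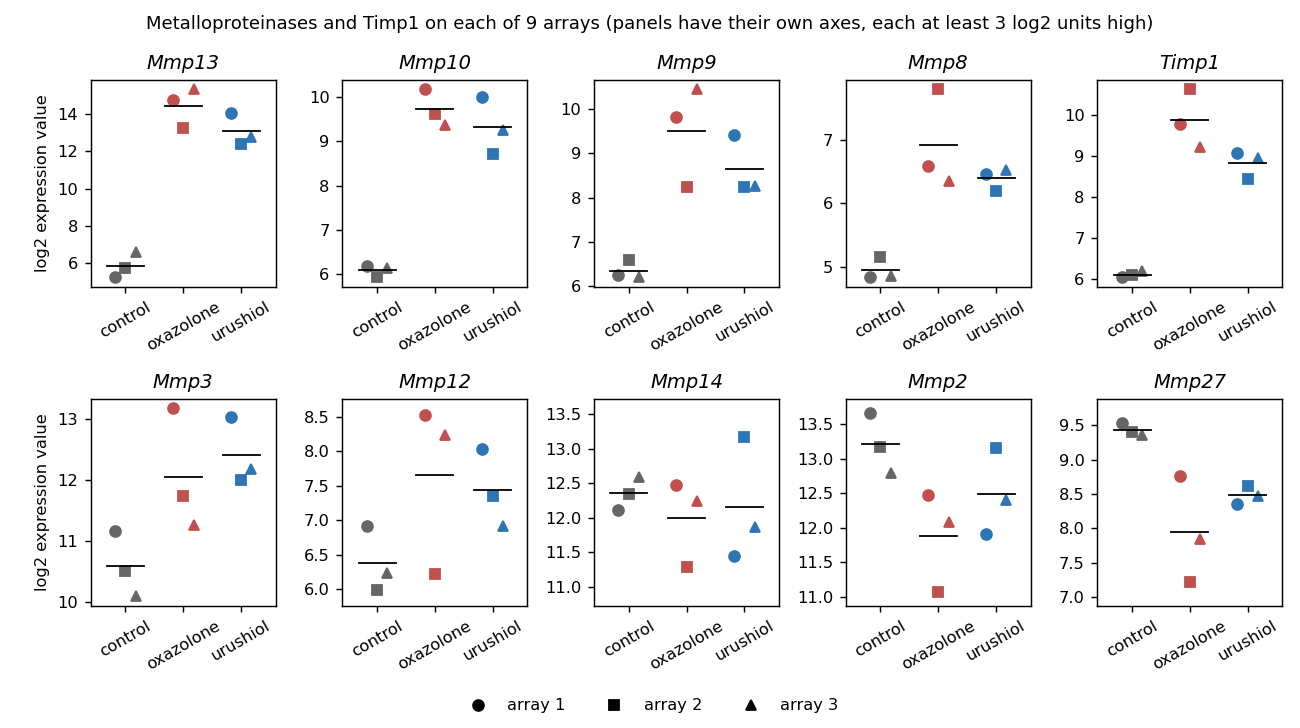
Log2 expression value (vertical axis, its own range in each panel) of the 10 genes on each of 9 arrays, grouped as control, oxazolone and urushiol (horizontal axis). Points are arrays, shaped by array number, and lines are group means. For Mmp13, Mmp10, Mmp9, Mmp8, Timp1 and Mmp3 every challenged array lay above the 3 control arrays.

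Mmp13, the secreted collagenase that opens fibrillar collagen, showed the largest differences of the set. Its log2 values were 5.27, 5.74 and 6.62 on the control arrays, 14.73, 13.23 and 15.32 on the oxazolone arrays and 14.06, 12.40 and 12.74 on the urushiol arrays. The challenged arrays lay at least 5 log2 units above every control array, and the highest control was array 3, which stands apart. Mmp13 rose by 8.55 ± 0.67 in oxazolone (adjusted p = 0.000939) and by 7.19 ± 0.67 in urushiol skin (adjusted p = 0.0014). Both calls held without any single array, at adjusted p up to 0.00918, and under every other alternative tried. On control array 1 the value lay below the median of all clusters on that array.

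Mmp10, or stromelysin 2, cuts noncollagenous matrix and activates other proenzymes, and is known from keratinocytes at wound edges. Its values were 6.19, 5.94 and 6.14 in control, 10.18, 9.63 and 9.37 in oxazolone and 10.01, 8.72 and 9.26 in urushiol skin. Controls were tightly grouped (SD 0.13) and all 6 challenged arrays lay more than 2 log2 units above them. Mmp10 rose by 3.64 ± 0.34 with oxazolone (adjusted p = 0.00155) and by 3.24 ± 0.34 with urushiol (adjusted p = 0.00212), and no single array or alternative setting removed either call. Keratinocyte markers, of a cell type known for MMP10 and MMP13, were called higher for 6 and lower for 2 of 11 in each allergen. Their mean ran from 14.18 to 15.04 over control, 15.38 to 15.91 over oxazolone and 15.91 to 15.93 over urushiol arrays, and its part in these results was not tested.

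Timp1 was measured at 6.05, 6.10 and 6.19 in control skin, the smallest control spread of the 10 genes (SD 0.07). It stood at 9.79, 10.64 and 9.22 on the oxazolone arrays and at 9.08, 8.45 and 8.95 on the urushiol arrays. The 3 groups did not overlap, with oxazolone highest. Timp1 rose by 3.77 ± 0.34 in oxazolone skin (adjusted p = 0.00143) and by 2.71 ± 0.34 in urushiol skin (adjusted p = 0.00403), and both calls held under every alternative tried.

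Mmp9, gelatinase B, degrades denatured collagen and basement membrane collagen. Its log2 values were 6.26, 6.60 and 6.21 in control, 9.83, 8.25 and 10.45 in oxazolone and 9.42, 8.25 and 8.26 in urushiol skin. No challenged array overlapped the controls, though oxazolone array 2 and urushiol arrays 2 and 3 lay more than 1 log2 unit below the others. Mmp9 rose by 3.15 ± 0.58 with oxazolone (adjusted p = 0.0144) and by 2.29 ± 0.58 with urushiol (adjusted p = 0.0385). The oxazolone call failed on leaving out control array 1 (adjusted p = 0.054) or oxazolone array 1 (adjusted p = 0.0526). In urushiol skin the call did not hold when any control array, any urushiol array or oxazolone array 1 was left out, at adjusted p up to 0.12 (urushiol array 1), while the difference stayed between 1.90 and 2.48 over all alternatives.

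Mmp8, the collagenase stored in neutrophil granules, read 4.84, 5.15 and 4.86 on control arrays, each below its array's median. On the oxazolone arrays it read 6.59, 7.80 and 6.35, and on the urushiol arrays 6.47, 6.19 and 6.53. All challenged arrays lay above the controls and above the array median, and oxazolone array 2 lay highest. The rise was 1.96 ± 0.35 in oxazolone (adjusted p = 0.0137) and 1.45 ± 0.35 in urushiol skin (adjusted p = 0.035). Without control array 1 the oxazolone call was lost (adjusted p = 0.0529), as it was in a fit of those 2 groups alone (adjusted p = 0.0568). The urushiol call was lost without any control array, any urushiol array or oxazolone array 1, at adjusted p up to 0.108 (urushiol array 1), with the difference between 1.38 and 1.55 throughout.

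Of 13 markers of neutrophils, a known source of MMP8 and MMP9, 6 rose in each allergen and 7 were not called, with median differences of 0.27 and 0.15. Their mean was 6.21 to 6.40 on control arrays, 8.18 to 8.72 in oxazolone and 8.41 to 9.02 in urushiol skin. S100a8 and S100a9, calcium-binding proteins that stressed keratinocytes also make, rose by 8.81 ± 0.78 and 8.23 ± 0.61 with oxazolone and by 10.58 ± 0.78 and 9.98 ± 0.61 with urushiol. The receptor genes Cxcr2 and Csf3r rose by 2.51 ± 0.24 and 2.49 ± 0.27 with oxazolone and by 2.83 ± 0.24 and 2.65 ± 0.27 with urushiol. Il1r2, Ly6g and Camp were not called, at -0.98, 0.27 and 0.21 with oxazolone and -0.66, 0.10 and 0.15 with urushiol. The granule genes Elane, Mpo, Ngp and Ltf lay below the array median on all 9 arrays. Their part in the Mmp8 and Mmp9 results was not tested.

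Mmp3, or stromelysin 1, activates other proenzymes and was higher in all challenged arrays without passing the threshold. Its values were 11.17, 10.52 and 10.10 in control, 13.18, 11.74 and 11.26 in oxazolone and 13.04, 12.00 and 12.18 in urushiol skin. The lowest oxazolone array lay just above the highest control, so the groups did not overlap. The differences were 1.46 ± 0.55 (adjusted p = 0.107) and 1.81 ± 0.55 (adjusted p = 0.0649). Urushiol against control passed without oxazolone array 1 (adjusted p = 0.0347) and when dim genes were left out.

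Mmp12, the elastase of macrophages, was spread widely within groups. It read 6.92, 5.99 and 6.23 in control, 8.53, 6.22 and 8.23 in oxazolone and 8.04, 7.35 and 6.92 in urushiol skin. Oxazolone array 2 lay among the controls, and the lowest urushiol array equalled the highest control. The differences of 1.28 ± 0.63 and 1.06 ± 0.63 did not pass (adjusted p = 0.199 and 0.302), and without oxazolone array 2 the oxazolone difference was 2.00 and passed (adjusted p = 0.0339). The mean of 10 macrophage markers relative to control was 1.19, 0.07 and 0.12 on the oxazolone arrays and 1.13, 0.52 and 0.98 on the urushiol arrays, with 1 of 10 called higher in oxazolone (Cd14) and 2 in urushiol skin (Cd14 and Mrc1). None of the 10 lay below the array median on all arrays, and their part in the Mmp12 values was not tested.

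Mmp2 and Mmp14 form an activation pair: MMP14 is a membrane-bound enzyme that, with TIMP2 as a bridge, activates proMMP2, or gelatinase A. Mmp2 read 13.67, 13.17 and 12.80 in control, 12.48, 11.07 and 12.09 in oxazolone and 11.91, 13.16 and 12.41 in urushiol skin. The oxazolone arrays all lay below the controls, while urushiol array 2 lay among them. Mmp2 differed from control by -1.33 ± 0.46 with oxazolone (adjusted p = 0.0877) and by -0.72 ± 0.46 with urushiol (adjusted p = 0.333). The first of these passed after quantile renormalisation (adjusted p = 0.0414), and otherwise neither passed.

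Mmp14 read 12.12, 12.35 and 12.59 in control, 12.47, 11.28 and 12.25 in oxazolone and 11.45, 13.17 and 11.86 in urushiol skin. Both challenged groups overlapped the controls and spread on both sides of them. The differences were -0.35 ± 0.49 (95% confidence interval -1.50 to 0.79) and -0.19 ± 0.49 (-1.34 to 0.95), and their sign turned under some alternatives, up to 0.01 in oxazolone and 0.16 in urushiol skin. A change of 1 log2 unit down is inside both intervals.

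Mmp27, a membrane-anchored enzyme whose substrates are little known, read 9.53, 9.40 and 9.35 in control, 8.76, 7.23 and 7.84 in oxazolone and 8.36, 8.61 and 8.47 in urushiol skin. All 6 challenged arrays lay below the 3 controls. It fell by 1.48 ± 0.34 with oxazolone (adjusted p = 0.0292), a call that failed on leaving out control array 1 or 2, oxazolone array 3 or urushiol array 2 or 3, the highest adjusted p being 0.0908 without control array 1. It also failed in a fit of those 2 groups alone (adjusted p = 0.0894). With urushiol the difference was -0.95 ± 0.34 (adjusted p = 0.104), which passed in a fit of those 2 groups alone (adjusted p = 0.0105), with array weights (0.0492) and without oxazolone array 1 (0.0205) or 2 (0.0496).

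The arrays low in Mmp2 and Mmp14 were also low in fibroblast markers. The mean of 11 fibroblast markers relative to control was -0.04, -0.85 and -0.33 on oxazolone arrays 1, 2 and 3 and -0.66, 0.14 and -0.43 on urushiol arrays 1, 2 and 3. Oxazolone array 2 was lowest, and urushiol array 2 highest of the challenged arrays, in the marker mean, in Mmp2 and in Mmp14. Of the 11 markers, 4 fell and 1 rose with oxazolone, and 3 fell and 1 rose with urushiol. Of the 11, 5 are also matrix genes counted among the substrates. Means of the list ranged from 12.95 to 13.28 over the control, 12.29 to 13.10 over the oxazolone and 12.48 to 13.28 over the urushiol arrays, no marker lay below the array median on all arrays, and the part of this list in the Mmp2, Mmp14 and Mmp27 values was not tested.

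**Figure D2:**
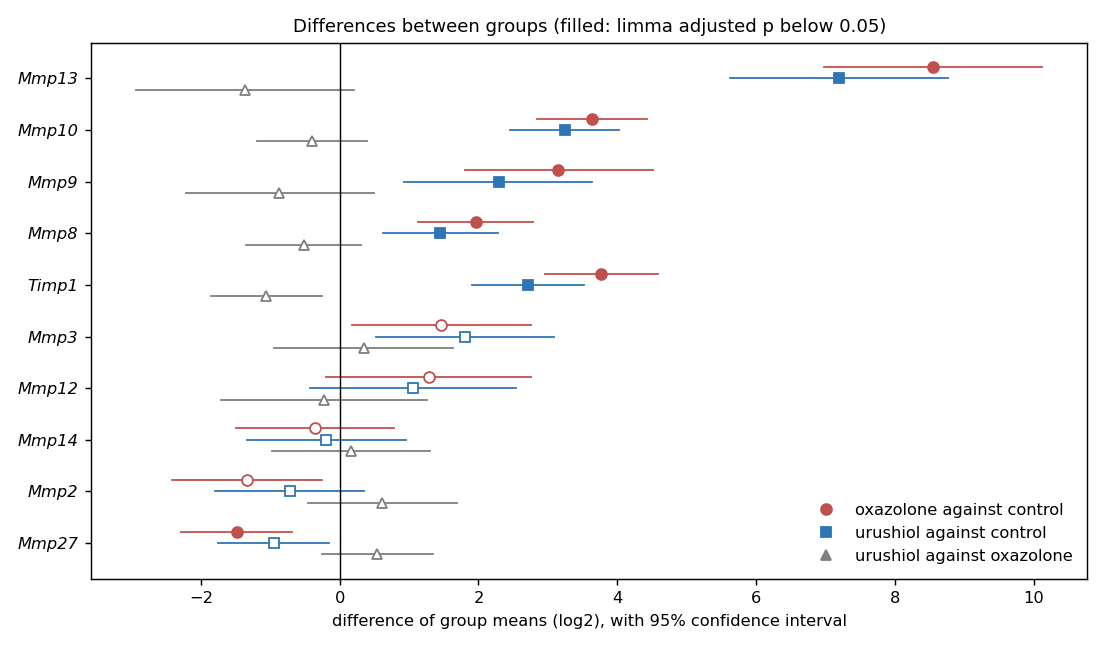
Difference of group means (horizontal axis, log2) with its 95% confidence interval for the 10 genes (vertical axis) in 3 comparisons. Filled points had a limma adjusted p below the threshold. The Mmp13 intervals against control (6.98 to 10.12 for oxazolone and 5.62 to 8.76 for urushiol) lie to the right of all other intervals.

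In size of difference from control, Mmp13 came first in both allergens. Its intervals did not overlap those of the next genes, Timp1 (2.96 to 4.58 with oxazolone) and Mmp10 (2.45 to 4.03 with urushiol). The order then ran Timp1, Mmp10, Mmp9, Mmp8, Mmp3 and Mmp12 in oxazolone skin, and Mmp10, Timp1, Mmp9, Mmp3, Mmp8 and Mmp12 in urushiol skin. Mmp14, Mmp2 and Mmp27 came last in both. From the gene after Mmp13 down, each interval overlapped that of the next gene, so neighbours in this order are not set apart.

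Counted by arrays rather than by the test, 8 of the 10 genes did not overlap between oxazolone and control skin, 6 higher and 2 lower, where 32.8% of all genes did not (21.3% higher and 11.5% lower). Between urushiol and control skin 7 did not overlap, 6 higher and 1 lower, where 32.9% of all genes did not (21.1% higher and 11.8% lower). An exact permutation test of 3 arrays against 3, two-sided, gives p = 0.1 for each such gene, the smallest p this design allows.

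Compared with each other, the allergens gave no call among the 10 genes, and 0.0166% of all genes were called. By limma's unadjusted p under 0.05, 1 of the 10 genes stood out, against 5.88% of all genes. This was Timp1, which was lower with urushiol by 1.06 log2 units (95% confidence interval -1.86 to -0.25, adjusted p = 0.654) and did not overlap, as 9.74% of all genes did not (4.39% lower). Without oxazolone array 2 the Timp1 difference was -0.68 (adjusted p = 0.82). Mmp13 differed by -1.36 ± 0.67 (interval -2.93 to 0.21, adjusted p = 0.938) and Mmp9 by -0.87 ± 0.58 (-2.22 to 0.49). The interval of Mmp10 ran from -1.19 to 0.40 and that of Mmp8 from -1.35 to 0.31. Mmp3, Mmp2, Mmp27 and Mmp14 had higher means with urushiol, by 0.35, 0.61, 0.54 and 0.16, and the interval of Mmp3 reached from -0.94 to 1.63. These intervals leave room for differences of more than 1 log2 unit in 1 direction or the other, so the 2 allergens are not shown to act alike on these genes.

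Set beside Timp1 on the same array, the enzymes moved unequally. The log2 value of Mmp13 minus that of Timp1 rose over its control mean by 4.78 (SD 1.79, n = 3) in oxazolone and 4.48 (SD 0.65) in urushiol skin, and all 6 challenged arrays lay above all controls. For Mmp10 the same shift was -0.13 (SD 0.75) and 0.53 (SD 0.37), with 5 of 6 challenged arrays above all controls and oxazolone array 2 (-0.99) below them. For Mmp8 it was -1.81 (SD 0.20) and -1.27 (SD 0.18), with all 6 challenged arrays below all controls. In oxazolone skin Mmp12 (SD 1.91) and Mmp9 (SD 1.85) spread most, Mmp9 lying at -0.20, -2.63 and 0.99. Mmp2, Mmp12, Mmp14 and Mmp27 lay below all controls on every challenged array and Mmp3 on 5 of 6. Because Timp1 itself rose on every challenged array, an enzyme gene without any change of its own would also lie below the controls here. No test was made of these shifts, and they compare changes, not amounts, of enzyme and inhibitor.

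**Figure D3:**
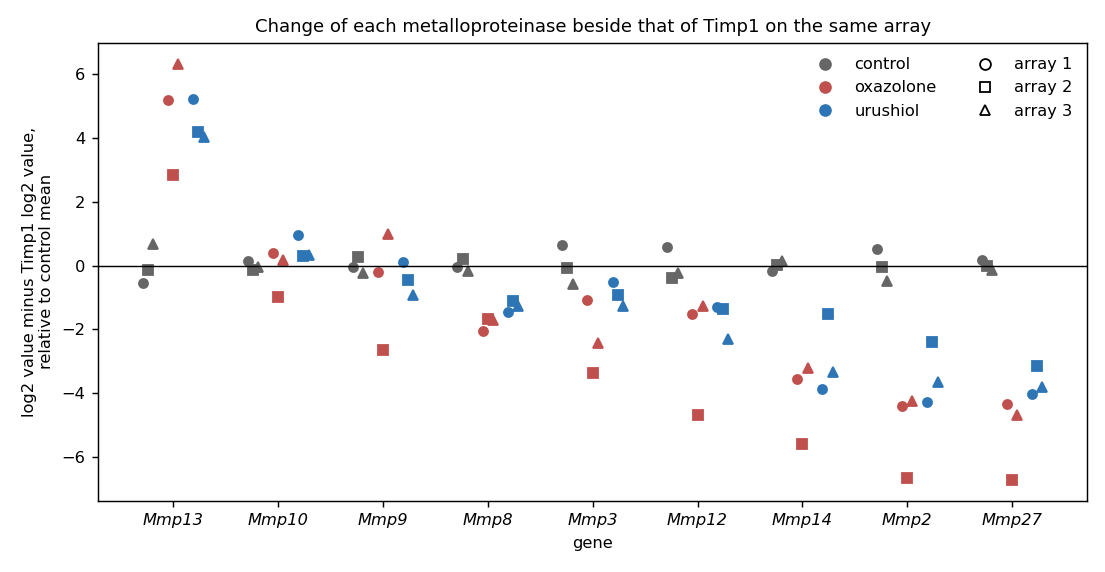
Log2 value of each metalloproteinase (horizontal axis) minus the Timp1 log2 value on the same array, relative to the mean of the 3 control arrays (vertical axis). Points are arrays, coloured by group and shaped by array number. Mmp13 lies between 2.83 and 6.34 on challenged arrays. Oxazolone array 2, which has the highest Timp1 value, is the lowest of the oxazolone points for every gene except Mmp8.

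In a group of 3 arrays all but the middle one lie at an end, so such a position does not by itself set an array apart. Oxazolone array 2 held the highest Timp1 and Mmp8 values of all 9 arrays and the lowest oxazolone values of Mmp2, Mmp9, Mmp12, Mmp13, Mmp14 and Mmp27. For Mmp3 and Mmp10 it lay between the other oxazolone arrays. Its hair follicle mean stood 5.75 log2 units above the control mean, against 3.03 and 3.99 for the other oxazolone arrays. Without it, 7 of the 10 genes were called in oxazolone skin. Of all 30142 genes, 2831 were then called there, against 4989 with every array kept.

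Along the row of neighbouring genes on chromosome 9, the changes did not run in 1 direction. Mmp1b and Mmp1a, the mouse relatives of human interstitial collagenase, were called higher in both allergens. Mmp1b read 4.36, 4.43 and 4.85 in control, 7.92, 7.63 and 7.27 in oxazolone and 7.46, 6.54 and 7.37 in urushiol skin. It rose by 3.06 ± 0.29 and 2.58 ± 0.29, and Mmp1a by 1.21 ± 0.24 and 1.18 ± 0.24. The call of Mmp1a was lost without control array 1 in both comparisons (adjusted p = 0.0662 and 0.0669) and, in the first, without oxazolone array 1 or 2. The clusters of these close paralogs may share probes, which was not tested.

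At the far end of the row, Mmp20, the enamel enzyme, stayed between 4.56 and 4.72 and Mmp7, matrilysin, between 4.29 and 4.35 on all 9 arrays, below the array medians. Their promoter windows also hold the AP-1 letters, 95 to 89 bases before the start in Mmp20 and 63 to 57 in the first window of Mmp7, as do those of Mmp1a and Mmp1b. So 8 of the 10 genes of the row have a window with these letters. The 2 without them are Mmp8, which rose, and its neighbour Mmp27.

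**Figure D4:**
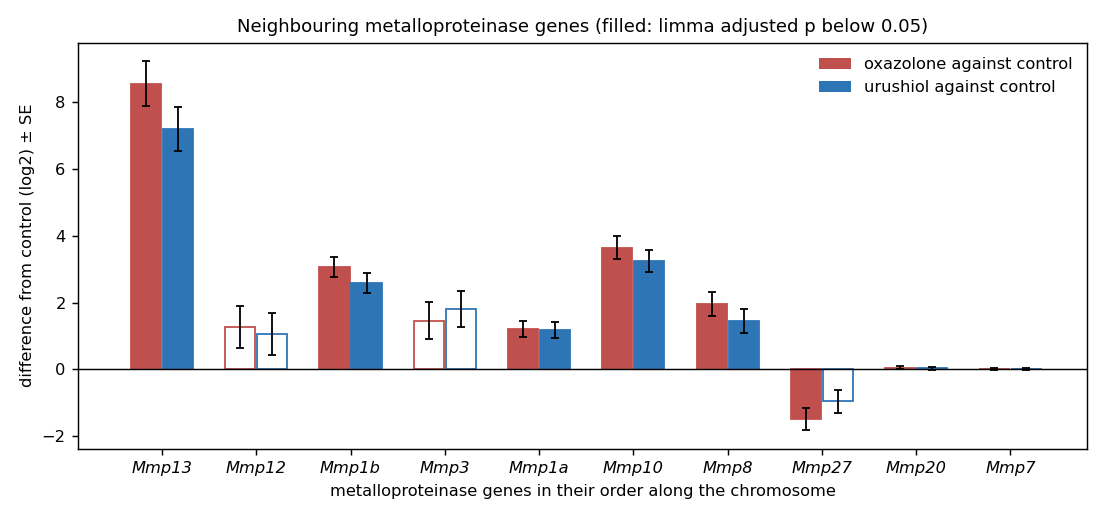
Difference from control (vertical axis, log2, bars with the standard error) in oxazolone and urushiol skin for 10 metalloproteinase genes in their order along chromosome 9 (horizontal axis, not to scale). Filled bars had a limma adjusted p below the threshold; Mmp27 lies below 0 between Mmp8 above it and Mmp20 near it.

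Of 13 other metalloproteinases measured, 5 rose and 2 fell with oxazolone and 4 rose and 1 fell with urushiol, with a median of 0.05 in both comparisons beside 0.06 and 0.04 over all genes. Besides Mmp1a and Mmp1b, Mmp19 rose by 1.17 ± 0.15 and 1.20 ± 0.15, and Mmp11, or stromelysin 3, a product of stromal cells, by 1.62 ± 0.45 and 2.22 ± 0.45. Mmp11 read 6.22, 6.56 and 6.51 in control, 8.62, 7.41 and 8.13 in oxazolone and 8.13, 9.60 and 8.23 in urushiol skin, so every challenged array lay above the controls. Mmp25, a membrane-bound enzyme of leukocytes, rose by 0.43 ± 0.09 with oxazolone, though its values of 4.54 to 5.26 lay below the array median on all 9 arrays. Mmp28, or epilysin, of resting keratinocytes, fell by 0.44 ± 0.07 and 0.39 ± 0.07, and Mmp23 fell by 0.21 ± 0.05 with oxazolone. In oxazolone skin the calls of Mmp11, Mmp23 and Mmp25 failed on leaving out any of 8, any of 7 and 1 of the arrays, with adjusted p reaching 0.137, 0.108 and 0.0799 without control array 1 in each case, and with urushiol Mmp11 was lost without control array 1 or 2 (0.0671 without the former).

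Of 6 other inhibitors, 1 rose and 2 fell with oxazolone, and 1 rose and 3 fell with urushiol, with medians of -0.60 and -0.74. Timp2, which both inhibits metalloproteinases and helps MMP14 activate proMMP2, read 12.99, 12.92 and 12.54 in control, 11.34, 10.63 and 10.89 in oxazolone and 10.96, 11.34 and 11.31 in urushiol skin. All challenged arrays lay more than 1 log2 unit below the lowest control, and Timp2 fell by 1.86 ± 0.21 and 1.61 ± 0.21. Reck, a membrane-anchored inhibitor, fell by 1.50 ± 0.10 and 1.27 ± 0.10. Tfpi2, a protease inhibitor of the matrix, rose by 2.75 ± 0.26 and 2.20 ± 0.26. In urushiol skin Timp3, the inhibitor that binds to the matrix, fell by 1.05 ± 0.29 (adjusted p = 0.049), a call lost without any 1 of the 9 arrays, at adjusted p from 0.052 to 0.137.

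Genes of plasminogen activation, which supplies plasmin to activate proenzymes, were called in 1 direction. Of 7 measured, 3 rose and none fell in each allergen, with medians of 0.47 and 0.44. Plaur, the urokinase receptor, rose by 3.10 ± 0.20 and 2.54 ± 0.20, and Serpinb2, a urokinase inhibitor, by 2.66 ± 0.41 and 2.73 ± 0.41. The third was Plau, urokinase itself (1.28 ± 0.20 and 1.37 ± 0.20). Of 10 other proenzyme activators 3 rose with oxazolone and 2 with urushiol, with medians of 0.38 and 0.41, among them Furin, the protease that activates MMP14 inside the cell (1.39 ± 0.21 and 1.21 ± 0.21), and the mast cell chymase gene Cma1 (1.0 ± 0.20 and 1.12 ± 0.20). Leaving out control array 2 or oxazolone array 1 or 3 removed the first call of Cma1 (highest adjusted p = 0.0685), and leaving out urushiol array 1 or 3 the second (0.0546). Cma1 is also 1 of 8 mast cell markers, of which 2 rose with oxazolone and 3 with urushiol, with means of 8.38 to 8.63 over control, 8.97 to 9.23 over oxazolone and 8.99 to 9.55 over urushiol arrays; Tpsab1 lay below the array median on all arrays. The part of mast cells was not tested.

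Among related proteases, 5 of 12 ADAM and ADAMTS genes rose with oxazolone and 4 with urushiol, and none fell, with medians of 0.13 and 0.33. Adam8, a leukocyte sheddase, rose by 2.72 ± 0.12 and 2.28 ± 0.12, and Adamts1, which cuts versican, by 1.91 ± 0.31 and 1.61 ± 0.31, the latter lost without urushiol array 1 (adjusted p = 0.0614). Of 7 cathepsins 5 rose and 1 fell with oxazolone and 4 rose with urushiol, with medians of 0.62 and 0.82. Ctss, of antigen-presenting cells, rose by 2.33 ± 0.45 with oxazolone and by 1.86 ± 0.45 with urushiol (limma adjusted p = 0.0341 in the latter). Ctsc, which activates granule proteases, rose by 2.18 ± 0.30 and 1.89 ± 0.30, and Ctsl by 1.78 ± 0.22 and 1.90 ± 0.22. Ctsk, a collagenase of fibroblasts and osteoclasts, fell by 1.30 ± 0.24 with oxazolone. In oxazolone skin the call of Ctsk was lost without control array 1 or 2, at adjusted p up to 0.0552. That of Ctss there was lost without either of these or oxazolone array 3, at adjusted p up to 0.0603.

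Substrates of these enzymes moved both ways. Of 11 interstitial matrix genes 2 rose and 4 fell with oxazolone, and 1 rose and 3 fell with urushiol, with medians of -0.34 and -0.27. Tnc, tenascin of wound matrix, rose by 8.18 ± 0.84 and 7.57 ± 0.84, and Vcan, versican, by 2.01 ± 0.45 with oxazolone. The chains of collagen I, the main substrate of MMP13 and MMP8, fell: Col1a2 by 2.21 ± 0.48 and 2.12 ± 0.48, and Col1a1 by 2.13 ± 0.58 and 2.46 ± 0.58. Leaving out 1 array ended the calls of Col1a1 in 7 and 6 of 9 cases, those of Col1a2 in 4 and 5, and that of Vcan in 6, at adjusted p up to 0.133, 0.0898 and 0.0872. Of 9 basement membrane genes only Lama3, a laminin chain, was called, with oxazolone (1.04 ± 0.24), which failed on leaving out any of 6 arrays, with adjusted p reaching 0.0996 without control array 2.

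Of 10 binding partners and clearance receptors 4 rose and 1 fell with oxazolone and 3 rose with urushiol, with medians of 1.05 and 0.97. Cd44, a hyaluronan receptor that docks MMP9 at the cell surface, rose by 2.95 ± 0.42 and 3.06 ± 0.42. Lcn2, lipocalin 2, which binds MMP9, rose by 2.24 ± 0.44 with oxazolone and by 2.40 ± 0.44 with urushiol. Thbs1, thrombospondin 1, rose by 3.40 ± 0.83 with oxazolone and was not called with urushiol (2.77 ± 0.83, limma adjusted p = 0.0625). Lrp1, an endocytic receptor that clears MMPs, fell by 0.66 ± 0.18 with oxazolone. The oxazolone calls failed on leaving out any of 8 arrays for Thbs1 (adjusted p reaching 0.102 without oxazolone array 1) and any of 6 for Lrp1 (0.15 without control array 2). The urushiol call of Lcn2 failed on leaving out any of 4 arrays (adjusted p reaching 0.0542 without urushiol array 1).

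Upstream, 12 cytokine genes were listed for a known bearing on metalloproteinase genes. With oxazolone 9 were called higher and with urushiol 5, none lower, where 9.63% and 9.96% of all genes were called higher. Their medians were 1.97 and 0.95. Tnf, Tgfb1, Ifng and Csf2 were called with oxazolone and not with urushiol, where they differed from control by 1.29, 0.60, 0.04 and 0.11. Urushiol against oxazolone gave no call for these genes, at -0.37, -0.28, -2.71 and -0.39 (limma adjusted p = 0.999, 0.987, 0.0767 and 0.0991). Il1b, interleukin 1 beta, rose by 8.11 ± 0.39 and 7.77 ± 0.39, and Il24, a relative of interleukin 10 made by keratinocytes, by 7.88 ± 0.49 and 6.85 ± 0.49. Of 11 AP-1 and ETS genes 2 rose with oxazolone and 3 with urushiol, beside 9.63% and 9.96% of all genes. None fell, and the medians were 0.20 and 0.34. Fos, Fosb, Jun and Jund were not called, at -0.05, -1.77, -0.44 and -0.37 with oxazolone and 0.92, -0.59, -0.12 and -0.27 with urushiol. Their standard errors were 1.15, 1.26, 0.65 and 0.32 in each comparison. Junb was listed but not measured. Fosl1, an AP-1 subunit of activated keratinocytes, rose by 0.93 ± 0.19 and 1.27 ± 0.19, and Ets1 by 0.76 ± 0.14 and 0.60 ± 0.14. Fosl1 in oxazolone skin failed on leaving out any of 5 arrays (adjusted p reaching 0.0654 without oxazolone array 2), and Ets1 any of 2 and 5 (0.0564 and 0.1 without control array 2).

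By likeness of pattern over the 9 arrays, among 8312 other genes whose values spanned at least 1 log2 unit, Mmp13 ran closest to Cdcp1 and Tes (Pearson's r = 0.994 each) and Gpr65 (0.992), and Mmp10 to Ms4a6d (0.995), Ms4a6c (0.994) and Mmp1b (0.99). Timp1 ran closest to Mirt1 (0.992), Klra2 and Tfpi2 (0.984 each). Mmp14 was most like the collagen VI genes Col6a1 (0.965) and Col6a2 (0.961), and Mmp2 most like Pdgfrb (0.963), the receptor of dermal mesenchyme that is among the fibroblast markers. Mmp9 was most like Gm11496 (0.993), Mmp8 like Il13ra2 (0.978), Mmp27 like Ust (0.985), Mmp3 like Cd84 (0.978) and Mmp12 like Gm13588 (0.981). The points share arrays and the step between control and challenged skin, so these values describe resemblance only.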

How the data were processed

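Total RNA of 9 skin samples, 3 in each group by the sample titles, was measured on Affymetrix arrays. The deposited table holds log2 expression values, made by the authors with Affymetrix Expression Console 1.4, RMA and Transcriptome Analysis Console, which the submitters' processing notes name with no role or order (build: not given in the sources used here). Of 72688 features 6732 controls were left out. Of 65956 clusters 30604 had 1 gene symbol, 2146 several and 33206 none; 827 symbols were updated through gene IDs, giving 30142 genes. Precision is limited by the number of arrays. The median standard error was 0.113 log2 units over all genes, but those of the 10 genes ran from 0.34 to 0.67.

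The 3 group comparisons come from limma 3.58.1 (R 4.3.3; lmFit and eBayes, two-sided, 1 unpaired fit of 9 arrays), with Benjamini-Hochberg adjustment over 30142 genes, after a test on simulated data. Its p-values set a difference of group means against the spread of arrays within the groups, which limma moderates over all genes.

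The members, lists and tests were chosen with earlier results of these data known. Named were all 10 members, called metalloproteinases and inhibitors, the 2 largest rises and falls of each other list, and the 3 most similar genes of a member (for some members 1 or 2 are given). Other genes were named after their values were seen. These were Plau, Tnf, Tgfb1, Ifng, Csf2, Fos, Fosb, Jun, Jund, the marker genes, Mmp7, Mmp20 and the genes that neighbour or overlap members. No label pairs arrays of the same number, but the numbers were tried as a block. Deviations from the group means of oxazolone and urushiol arrays of the same number correlated at r = 0.201, 0.197 and 0.124, and those of different number at up to 0.0214. With controls, 4 of 6 correlations at the same number lay below 0.1, and those at different numbers reached 0.285 (control array 3 with oxazolone array 2). These values do not settle whether the numbers pair any arrays. Alternatives covered scaling, dim genes, cluster choice, variance, weights, 2 groups, a ceiling, the block and leaving out each array.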

Additional observations from a re-analysis of the deposited data

How the results depend on the processing

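Over the 10 settings planned apart from leaving out arrays, the count of the 10 genes called stayed between 4 and 7 in oxazolone against control (6 in the main analysis), 5 and 6 in urushiol against control (5) and 0 in urushiol against oxazolone. Leaving out 1 array gave 3 to 7, 3 to 6 and 0, the 3 in oxazolone without control array 1, and the 3 in urushiol without any 1 control or urushiol array. Over all genes, leaving out 1 array gave 2107 (without control array 1) to 8019 calls (without control array 3) in oxazolone (4989), 2189 (without urushiol array 1) to 7655 (without control array 3) in urushiol (4942) and 0 to 94 (without oxazolone array 2) between allergens (5). Array weights gave 7688, 8135 and 54 calls, and fits of 2 groups alone 2198, 2324 and 2. Between allergens there were 19 calls after quantile renormalisation, 35 without dim genes, and 0 after median centring, with trended and robust variance, and with the replicate block. After quantile renormalisation 42.6% and 46.1% of calls against control were higher, beside 58.2% and 60.8%, so the background split depends on scaling. The replicate block over 9 arrays, where the controls share only a number, called 7 and 5 of the 10 genes: it added Mmp3 in both comparisons (adjusted p = 0.0209 and 0.0119) and dropped Mmp9 in urushiol (0.0527). The block within the 6 challenged arrays, chosen after seeing the data, called 0 of 30142 genes; the cause of these shifts was not tested.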
